A study of Rattus norvegicus with 4 samples.

Results

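The loci described here are places in the rat genome from which the left ventricle made RNA and to which the deposited expression table gave no gene symbol. A locus was taken when its symbol was empty or a dash and when the mean of its 2 group values was at least 1 FPKM (fragments per kilobase of transcript, scaled to the mapped fragments of a library). By this rule 2998 of 22861 loci were taken, and they made up 23.1% of the 12965 loci at or above the minimum. Another 2678 loci without a symbol lay below it, of which 257 were listed at 0 in both groups. The levels chose the loci, so levels are given as a description.

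Both groups were male Sprague Dawley rats on a 0.4% Dyets chow. At 10 weeks of age all had 5/6 nephrectomy (5/6Nx), surgery that leaves little working kidney. One group received anti-miR-21, a locked nucleic acid oligonucleotide against miR-21-5p, and the other received anti-scr, its scrambled control. Each was infused into the jugular vein at 1 mg/kg on 3 days in week 1 and on 3 days in week 4, and the ventricle was taken in week 7. Each group had 2 libraries, and each library was a pool of 2 to 3 rats, so no library stands for 1 animal, and fewer cells of a type cannot be told apart from less RNA per cell. The libraries held 47826514 to 54952098 reads, of which 94.0% to 94.4% mapped. All 13 cardiomyocyte markers that had a named locus lay above the minimum, between 360.6 and 34786 FPKM in mean. The 3 atrial markers lay above it too, between 84.8 and 272.5 FPKM in mean. They summed to 564.1 FPKM with anti-miR-21 and 320.5 FPKM with anti-scr, and their part in the values below was not tested. The pair of kidney markers summed to 0.0471 FPKM with anti-miR-21 and to 0 with anti-scr. The table holds 1 FPKM per locus and group, so there is no spread between libraries, and the only tests are the p and q of the authors' deposited table. A fold is the log2 ratio with anti-miR-21 on top, and positions follow that table, whose build is rn5.

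A locus without a symbol can be several things. It can be a protein-coding gene that the annotation used had not yet named, a long noncoding RNA, a stretch of RNA transcribed from the opposite strand of a known gene, or a short fragment of intron or repeat that the transcript assembler joined into a unit. Divergent transcription from one promoter is common in mammals and gives pairs of transcripts that run head to head. The inhibited molecule, miR-21-5p, is a microRNA known for its abundance in stressed heart muscle and in cardiac fibroblasts. It binds messenger RNA mainly through its seed, bases 2 to 8, printed here in capitals because it is what the oligonucleotide blocks (RefSeq, GRCr8).
rno-miR-21-5p: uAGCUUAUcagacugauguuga
The Mir21 locus has a name and is not among the loci described. It read 1.73 FPKM with anti-miR-21 and 0.894 FPKM with anti-scr, a difference with q of 0.794 in the authors' deposited table. Its interval, 76197068 to 76198047 on chromosome 10, is longer than the 22 bases of the mature microRNA. These values are therefore not a measure of mature miR-21-5p. One unnamed locus lay within 50 kb of the Mir21 locus, 2224 bases away, and its mean of 0.482 FPKM left it below the minimum.

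Few of the unnamed loci passed the test. Of 2848 that were tested, 8 had a q under 0.05 in the authors' deposited table, which is 0.281%, against 0.815% of all 12876 tested loci and 0.957% of the named loci at the same minimum. Of the 8, 1 was higher with anti-miR-21 (0.0351%) and 7 were lower (0.246%). All tested loci together had 0.186% higher and 0.629% lower, and named loci had 0.222% higher and 0.736% lower. The share stayed below that of named loci in each class of level in the authors' deposited table. It was 0.183% against 0.38% from 1 to 5 FPKM, 0.129% against 0.593% from 5 to 20 FPKM, and 0.928% against 1.8% at 20 FPKM or above. At an unadjusted p under 0.05, the authors' deposited table held 90 higher (3.16%) and 89 lower (3.12%) among unnamed loci, 6.29% together. Among named loci it held 306 higher (3.08%) and 691 lower (6.96%), 10% together, and over all tested loci 3.18% higher and 6.11% lower, 9.3% together. The difference between named and unnamed loci was not tested.

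The locus that rose lies on chromosome 4, 28207148 to 28227020 (XLOC_015558), on the minus strand. It read 5.64 FPKM with anti-miR-21 and 2.81 FPKM with anti-scr, a log2 fold of 1.01 with q of 0.0131 in the authors' deposited table. Its neighbours with names are Cdk6 and Hepacam2. One RefSeq gene between them matched its strand and its length within 10%, Samd9, which in human cells is an interferon-induced factor that restricts poxviruses. Cdk6, a cell cycle kinase, read 3.11 FPKM with anti-miR-21 and 2.54 FPKM with anti-scr, with q of 0.733 in the authors' deposited table.

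Of the 7 that fell, 4 had a value above 0 in both groups. The highest of them is a locus of 482 bases on chromosome 7, 36876603 to 36877085 (XLOC_019855), with no strand, 164573 bases from Nudt4. It read 44.7 FPKM with anti-miR-21 and 92.6 FPKM with anti-scr, a log2 fold of -1.05 with q of 0.0131 in the authors' deposited table. Nudt4, a diphosphoinositol phosphohydrolase, read 343.3 FPKM with anti-miR-21 and 266.8 FPKM with anti-scr, a log2 fold of 0.36 with q of 0.54 in the authors' deposited table.

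Next in level, on chromosome 5, 29024404 to 29048423 (XLOC_016859), a locus read 26.2 FPKM with anti-miR-21 and 48.1 FPKM with anti-scr, a log2 fold of -0.88. It lies between Plekhf2 and Tp53inp1, where RefSeq has 4 genes that its strand allows and the table does not name, and no single one matched its length. Its q was 0.0211 in the authors' deposited table. A locus that spans 200675 bases lies on chromosome 12, 51539431 to 51740106 (XLOC_005824). It read 17.3 FPKM with anti-miR-21 and 33.4 FPKM with anti-scr, a log2 fold of -0.95 with q of 0.0131 in the authors' deposited table. The 1 RefSeq gene of like length between its neighbours Adrbk2 and Sez6l is Myo18b, an unconventional myosin needed to build the sarcomere of striated muscle. A locus on chromosome 1, 76027552 to 76045950 (XLOC_000223), read 7.25 FPKM with anti-miR-21 and 13.0 FPKM with anti-scr, a log2 fold of -0.84 with q of 0.042 in the authors' deposited table. It stands head to head with Isoc2b, 15720 bases away, and its RefSeq counterpart is Isoc2a, the paralog. Isoc2b itself was lower, at 40.4 FPKM with anti-miR-21 and 73.9 FPKM with anti-scr, with q of 0.0261 in the authors' deposited table. Both encode isochorismatase domain proteins, and reads can be shared between such close copies. How such reads were divided is not stated, and their part in these values was not tested.

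The other 3 that fell were listed at 0 with anti-miR-21, so they have no fold. One of 87 bases on chromosome 16, 59890174 to 59890261, was listed at 0 with anti-miR-21 and at 745.0 FPKM with anti-scr. One of 87460 bases on chromosome 5, 129358341 to 129445801, was listed at 0 with anti-miR-21 and at 4.46 FPKM with anti-scr. One of 292 bases on chromosome 2, 94862832 to 94863124, was listed at 0 with anti-miR-21 and at 3.64 FPKM with anti-scr, and no unnamed locus lay farther from a named one (2447446 bases, to Basp1). A listed 0 may also mean that no level could be estimated, so nothing more is read from these entries. Together 16 unnamed loci (0.534%) were listed at 0 in 1 group, 11 with anti-miR-21 and 5 with anti-scr, against 7 named loci (0.0702%). Of the 16, 13 were shorter than 300 bases and 13 had no strand.

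**Figure D1:**
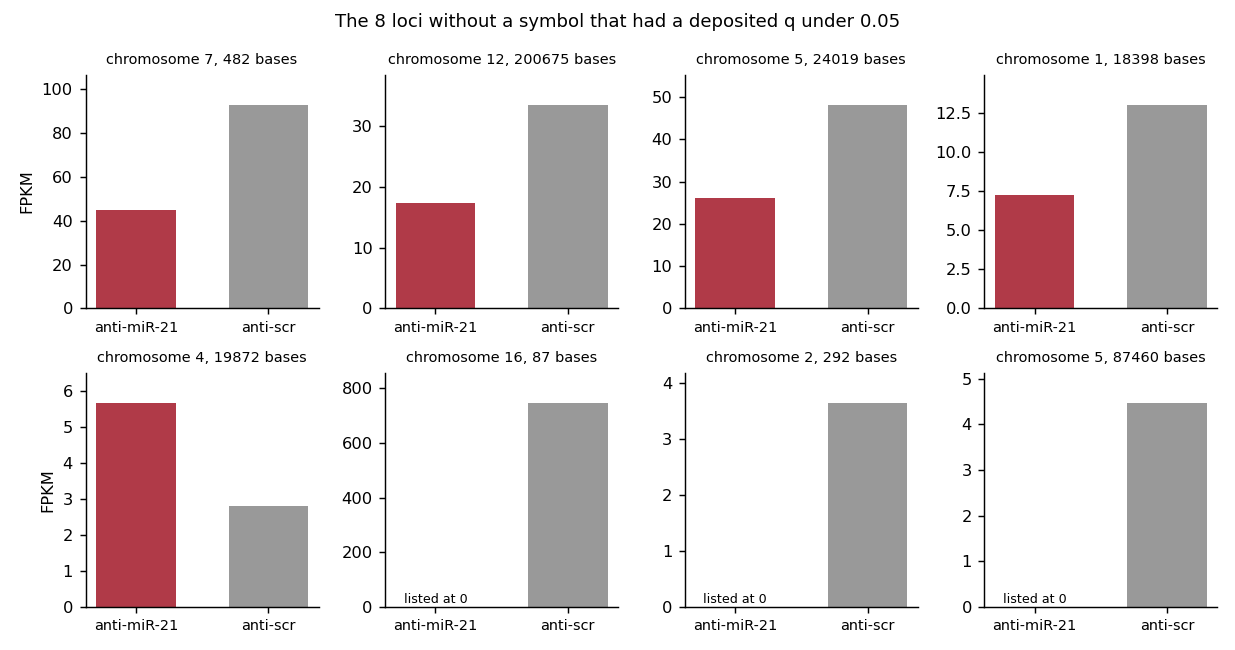
FPKM with anti-miR-21 (left bar) and anti-scr (right bar) for the 8 unnamed loci with a q under 0.05 in the authors' deposited table, 1 value per group with no error bar. The locus on chromosome 4 is the 1 that was higher with anti-miR-21, and 3 loci are listed at 0 with anti-miR-21.

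Over all unnamed loci with a value in both groups, 1722 had a higher value with anti-miR-21 and 1260 a lower one (57.7% higher), with a median log2 fold of 0.07. Named loci had 51.9% higher and a median of 0.01, and all loci at the minimum had a median of 0.03. Folds were wider among the unnamed: 175 of 2982 (5.87%) differed by at least 2-fold, 84 higher and 91 lower, against 142 (1.43%) of the named. Of the 175, 142 had a mean under 5 FPKM and 114 had no strand. Of the 175, 162 were tested and 2 passed, where 0.815% of all tested loci passed. Levels were also lower, with a median of 3.60 FPKM and quartiles of 1.72 and 9.79, against 11.0 FPKM for named loci.

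**Figure D2:**
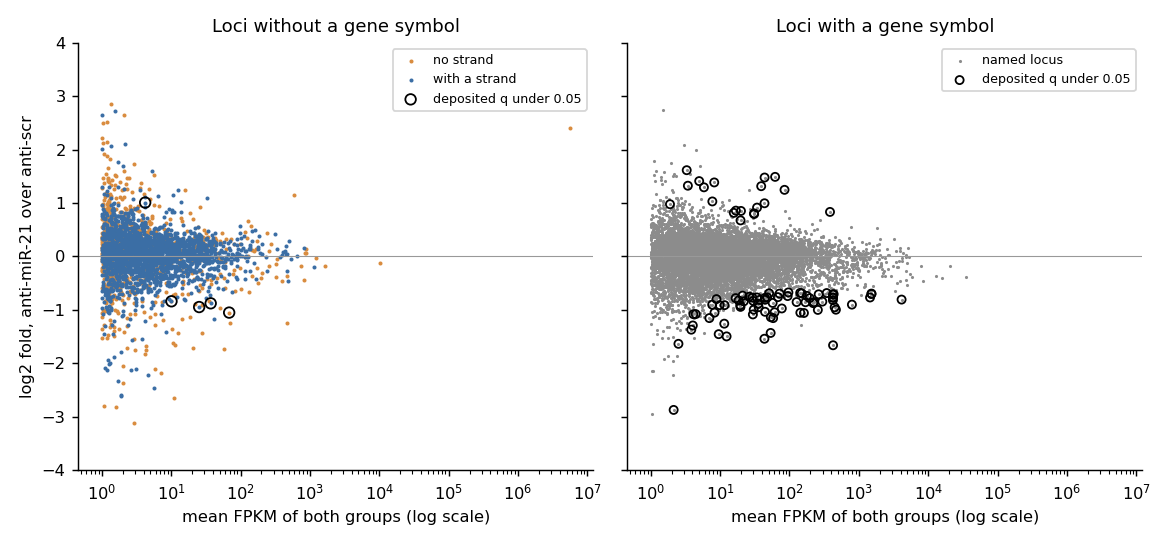
Mean FPKM of both groups (log axis) against log2 fold, anti-miR-21 over anti-scr, for unnamed loci (left) and named loci (right) with a value above 0 in both groups. Circles mark a q under 0.05 in the authors' deposited table. The unnamed loci thin out above 100 FPKM, where 86 lie, and 142 of the 175 with a fold of at least 2 lie below 5 FPKM.

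The 5 largest rises and the 5 largest falls had means between 1.02 and 10.9 FPKM. The largest rise was a locus of 472 bases on chromosome 9, 53261538 to 53262010, with 2.38 FPKM with anti-miR-21 and 0.328 FPKM with anti-scr (log2 fold 2.85). The largest fall was a locus of 248 bases on chromosome 5, 140918204 to 140918452, with 0.596 FPKM with anti-miR-21 and 5.20 FPKM with anti-scr (log2 fold -3.12). Among the 5 largest rises and the 5 largest falls, none had a q under 0.05 in the authors' deposited table, a level that 0.815% of all tested loci reached. The unadjusted p in that table lay between 0.0295 and 0.26 except for 1 locus that was not tested. At the minimum itself, the nearest locus inside had a mean of 1.0008 FPKM and the nearest outside 0.9994 FPKM.

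The table gives no strand, and the strand used here was inferred from the order of the locus numbers. On all 21 chromosomes the numbers run along the positions exactly 3 times. Of 10296 named loci with a RefSeq strand, 9162 (89.0%) had the strand taken for their run, plus in the first and minus in the second. Where the order of neighbouring genes was the same in RefSeq, 6914 of 6942 named loci (99.6%) had it, and where it was reversed 397 of 399 (99.5%) had the opposite. Loci whose neighbours had a mixed order are in neither of these counts and are part of the 89.0%. The loci of the third run were taken to have no strand: 1024 unnamed loci (34.2%) and 11 named ones (0.111%). Such loci differed from those with a strand in size, level and stability. Their median interval was 1173 bases, against 26654 bases for the 1974 with a strand. Their median level was 2.26 FPKM against 4.47 FPKM, and 11.3% of them had a fold of at least 2 in either direction, against 3.09%. Of the 8 loci that passed the test, 3 had no strand, out of 916 such loci tested, and 2 of those 3 were listed at 0 in 1 group. The other 5 were out of 1932 tested with a strand. Over all tested unnamed loci the share that passed was 0.281%.

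Length separated the loci further. An interval in the table can be listed for several loci, so lengths are compared over the 2271 unnamed loci that had an interval of their own. Under 200 bases there were 86, none with a strand and 12 of them listed at 0 in 1 group, and no named locus was so short. Between 200 and 1000 bases there were 389, of which 30 had a strand, and 82 (21.1%) had a fold of at least 2. From 10000 bases up, all had a strand: 777 up to 100000 bases, with a median level of 4.6 FPKM, and 181 beyond, with 5.75 FPKM. Such a fold was held by 1.68% of the 777 and 2.21% of the 181. Named loci of the same lengths had medians of 11.0 and 7.93 FPKM, and 0.891% and 0.442% had such a fold. Unnamed loci with a strand and their own interval had a median length of 19921 bases, against 24030 bases for the 7254 named loci.

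**Figure D3:**
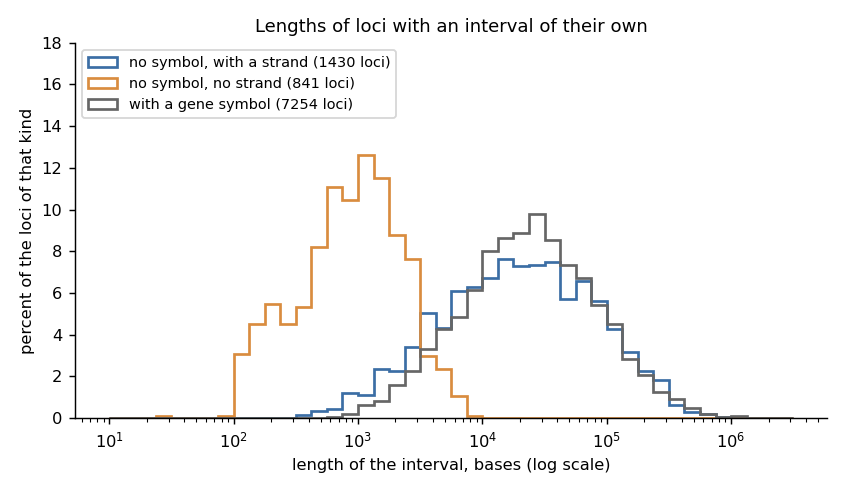
Length of the interval in bases (log axis) against the percent of loci of each kind, for loci with an interval of their own. Unnamed loci with a strand lie over the same lengths as named loci, and those without a strand centre near 1000 bases, with a median of 914.

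Of the 10 unnamed loci of highest level, 8 had no strand and 7 were shorter than 1000 bases. The first was a locus of 26 bases on chromosome 5, 142777432 to 142777458, listed at 9377910 FPKM with anti-miR-21 and 1781480 FPKM with anti-scr, with q of 0.828 in the authors' deposited table. A locus of 168 bases on chromosome 2, 130024366 to 130024534, followed with 9729 FPKM with anti-miR-21 and 10572 FPKM with anti-scr (log2 fold -0.12). With a strand, the highest was a locus of 79102 bases on chromosome 10, 43243199 to 43322301, between Hand1 and Cnot8, in an interval it shares with other unnamed loci. It read 1074 FPKM with anti-miR-21 and 1235 FPKM with anti-scr (log2 fold -0.20). The other with a strand lay on chromosome 2, 159933883 to 159939631, 5838 bases from Osap, with 860.6 FPKM with anti-miR-21 and 773.5 FPKM with anti-scr (log2 fold 0.15). None of the 10 had a q under 0.05 in the authors' deposited table, a level that 0.815% of all tested loci reached. Without the locus of 26 bases, the unnamed loci held 7.86% of the summed FPKM at the minimum with anti-miR-21 and 7.54% with anti-scr. Their sums, 61131 FPKM with anti-miR-21 and 63260 FPKM with anti-scr, still included the locus of 168 bases and other short loci. FPKM can run very high for such loci.

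The unnamed loci lay farther from named genes than named genes lay from each other. Their median distance to the nearest named locus was 12424 bases, with quartiles of 1616 and 57449, against 3122 bases between named loci. Beyond 50 kb lay 27.1% of the unnamed and 12.7% of the named. An interval was shared with a named locus by 244 (8.14%), and 124 of those lay on the opposite strand. The 4 longest entries show what a shared interval does to a length: 3 of them are the 2224092 bases of the Dmd interval on chromosome X, at 2.50 to 5.37 FPKM in mean, all in the third run of locus numbers. Dmd encodes dystrophin, which ties the muscle cytoskeleton to the membrane, and read 70.2 FPKM with anti-miR-21 and 58.6 FPKM with anti-scr.

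Over the 111 pairs on opposite strands of a shared interval with both at the minimum, the unnamed locus had a median of 3.8 FPKM and the named gene 13.3 FPKM. The pairs with the highest unnamed level went the other way. In the interval of Pkia, an inhibitor of protein kinase A, on chromosome 2, 116331025 to 116411967, the unnamed locus read 481.0 FPKM with anti-miR-21 and 420.0 FPKM with anti-scr (log2 fold 0.20). Pkia read 60.7 FPKM with anti-miR-21 and 53.4 FPKM with anti-scr (0.18). In the interval of Fstl1, a secreted follistatin-like protein, on chromosome 11, 68884345 to 68938343, the unnamed locus read 171.5 FPKM with anti-miR-21 and 123.2 FPKM with anti-scr (log2 fold 0.48), and Fstl1 56.0 FPKM with anti-miR-21 and 42.8 FPKM with anti-scr (0.39). These pairs were chosen by level after their values were seen. The labels give a stranded kit, but no source used here says whether the counting used the strand, so reads of a gene and of its opposite strand cannot be told apart with certainty.

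Folds of an unnamed locus and its nearest named locus were compared by distance. With both at the minimum, Spearman's rho across loci was 0.15 over 215 pairs that share an interval, 0.28 over 697 pairs under 5 kb apart, 0.13 over 722 pairs from 5 to 50 kb, and 0.07 over 528 pairs beyond 50 kb. It was also 0.15 over the 111 pairs on opposite strands of a shared interval. Between named neighbours the values were 0.36, 0.40, 0.28 and 0.09. Under 5 kb, rho was 0.55 for 80 unnamed loci upstream of a neighbour on the same strand, 0.39 for 80 downstream, 0.38 for 131 tail to tail, and 0.28 for 163 head to head. It was -0.02 for 111 loci without a strand before the neighbour's 5′ end and 0.21 for 132 past its 3′ end. All points share libraries, depth and scaling, and no p is given.

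Head to head within 1 kb stood 141 unnamed loci. The highest with a RefSeq promoter on the same chromosome were the partners of Brp44 (Mpc2 in RefSeq, a subunit of the mitochondrial pyruvate carrier), Col4a1 (a basement membrane collagen chain) and Hand2 (a transcription factor of the heart). The 300 bases around the start of each named partner, 250 before and 50 after, are printed because an unnamed locus begins near that start on the other strand. Capitals mark GC boxes (GGGCGG) and CCAAT boxes (CCAAT) on either strand. The stretches are chr13:80261006-80261305 on the plus strand for Mpc2, chr16:84885347-84885646 on the plus strand for Col4a1 and chr16:37931439-37931738 on the minus strand for Hand2, all from RefSeq on GRCr8, a later build than rn5.
Mpc2: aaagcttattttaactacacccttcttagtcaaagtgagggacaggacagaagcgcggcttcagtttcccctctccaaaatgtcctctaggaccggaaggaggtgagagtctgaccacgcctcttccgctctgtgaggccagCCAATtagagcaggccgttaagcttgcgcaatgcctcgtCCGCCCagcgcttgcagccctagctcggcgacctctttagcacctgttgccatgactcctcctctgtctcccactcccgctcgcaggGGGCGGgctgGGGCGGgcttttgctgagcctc
Col4a1: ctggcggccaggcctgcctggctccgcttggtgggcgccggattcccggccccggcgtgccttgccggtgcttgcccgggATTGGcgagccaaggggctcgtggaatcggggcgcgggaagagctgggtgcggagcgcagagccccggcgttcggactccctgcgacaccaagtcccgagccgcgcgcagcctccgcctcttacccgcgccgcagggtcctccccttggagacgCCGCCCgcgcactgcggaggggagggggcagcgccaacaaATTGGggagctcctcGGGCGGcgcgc
Hand2: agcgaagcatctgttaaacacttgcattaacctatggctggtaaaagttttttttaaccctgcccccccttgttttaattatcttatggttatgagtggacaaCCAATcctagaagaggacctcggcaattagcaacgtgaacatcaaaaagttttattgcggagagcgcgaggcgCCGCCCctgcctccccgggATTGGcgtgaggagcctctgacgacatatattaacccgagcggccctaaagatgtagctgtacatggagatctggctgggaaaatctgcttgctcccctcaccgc
All 3 hold both motifs. Of 93 named partners with a promoter in RefSeq, 69 (74.2%) held a GC box, against 62.5% of 7134 other named genes at the minimum and 35.9% of all 24206 promoters. For the CCAAT box the shares were 43.0%, 37.7% and 37.8%. The median GC content was 61.0% both in partners and in other named genes.

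The 3 pairs differed in how partners compared. On chromosome 13, 88458124 to 88560367, the unnamed locus 108 bases from Brp44 read 126.1 FPKM with anti-miR-21 and 126.8 FPKM with anti-scr (log2 fold -0.01), and its RefSeq counterpart is Dcaf6, a nuclear receptor cofactor. On chromosome 16, 82852182 to 82897848, the locus 862 bases from Col4a1 read 83.7 FPKM with anti-miR-21 and 95.3 FPKM with anti-scr (-0.19). The locus 173 bases from Hand2, on chromosome 16, 36174937 to 36191936, read 86.5 FPKM with anti-miR-21 and 89.3 FPKM with anti-scr (-0.05). Hand2 itself read 28.8 FPKM with anti-miR-21 and 46.2 FPKM with anti-scr (-0.68), with p of 0.0272 and q of 0.432 in the authors' deposited table. Neither side of these pairs passed the test.

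Near genes of heart muscle, 29 unnamed loci lay within 50 kb of 20 genes on a list of 50 cardiac genes. Of these loci, 13 were higher and 16 lower with anti-miR-21. None passed the test, which 0.815% of all tested loci passed. Beside Actc1, cardiac actin, a locus 1378 bases away read 77.9 FPKM with anti-miR-21 and 63.8 FPKM with anti-scr (log2 fold 0.29). Beside Tnnc1, cardiac troponin C, a locus 1451 bases away with the counterpart Nisch read 38.3 FPKM with anti-miR-21 and 57.7 FPKM with anti-scr (-0.59), with p of 0.0074 and q of 0.243 in the authors' deposited table. Beside Myl2, the ventricular regulatory light chain, a locus of 2507 bases with no strand read 7.91 FPKM with anti-miR-21 and 13.1 FPKM with anti-scr (-0.73), with p of 0.0025 in the authors' deposited table. In the interval of Gata4, a cardiac transcription factor, the locus on the opposite strand read 14.8 FPKM with anti-miR-21 and 16.1 FPKM with anti-scr (-0.12).

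Many of the loci with a strand sit where RefSeq has a gene. Of 1817 that shared no interval with a named locus, 710 (39.1%) had exactly 1 RefSeq gene between the same flanking genes that the table did not name, of a fitting strand and a length within 10%. Where RefSeq's table gives a gene no strand, loci on both strands can match it. By RefSeq type, 586 of these counterparts were protein coding and 102 were long noncoding RNA. The same search on 7185 named loci with the name hidden gave 4689 single matches, of which 98% were the right gene. With the right gene left out, 4.13% of the loci still matched a gene. These named loci all had a gene in RefSeq, which need not hold for unnamed loci, so the 98% may not carry over. The counterpart is what RefSeq has at that place and not a name given by the table. Among the 586 loci with a protein-coding counterpart, 3 passed the test, 1 higher and 2 lower, and the median log2 fold was 0.06. A p under 0.05 stood in the authors' deposited table for 23 higher and 30 lower. Over all tested loci 0.815% passed the test, and 3.18% were higher and 6.11% lower at that p.

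The groups of counterparts below were chosen after the values were seen and are a description. Sarcomere, Z-disc and junction genes had 15 loci, 6 higher and 9 lower, with a median log2 fold of -0.16. Besides the Myo18b locus, the Ldb3 locus, at the place of a Z-disc protein that anchors alpha-actinin, read 403.3 FPKM with anti-miR-21 and 556.9 FPKM with anti-scr (-0.47), with p of 0.0264 in the authors' deposited table. Lmod3, which nucleates thin filaments, stood at 28.5 FPKM with anti-miR-21 and 31.8 FPKM with anti-scr (-0.16). The cardiomyocyte markers, all above the minimum, summed to 83685 FPKM with anti-miR-21 and 104920 FPKM with anti-scr, and their part in these values was not tested.

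Counterparts that encode mitochondrial proteins had 18 loci, 5 higher and 13 lower, with a median of -0.34. The Ndufa13 locus, at the place of a subunit of respiratory complex I, read 43.7 FPKM with anti-miR-21 and 66.6 FPKM with anti-scr (-0.61), with p of 0.0054 in the authors' deposited table. The Smdt1 locus, at the place of a regulator of the mitochondrial calcium uniporter, read 74.7 FPKM with anti-miR-21 and 100.5 FPKM with anti-scr (-0.43). The Mrpl28 locus, at the place of a mitochondrial ribosomal protein, read 36.7 FPKM with anti-miR-21 and 51.2 FPKM with anti-scr (-0.48). None of the 18 had a q under 0.05 in the authors' deposited table, a level that 0.815% of all tested loci reached.

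Interferon response counterparts had 9 loci, 7 higher and 2 lower, with a median of 0.48, and 4 of them had a p under 0.05 in the authors' deposited table, all higher, where 3.18% of all tested loci were higher at that p. After Samd9 came Herc6, a ubiquitin ligase that in mouse attaches the interferon-induced modifier ISG15, with 17.6 FPKM with anti-miR-21 and 9.87 FPKM with anti-scr (0.84; q of 0.0771 in the authors' deposited table). The Slfn1 locus, on chromosome 10, 70025274 to 70031473, read 2.18 FPKM with anti-miR-21 and 0.519 FPKM with anti-scr (2.07; p of 0.00605 in the authors' deposited table). Its named relative Slfn3 lies on the same chromosome, 70045686 to 70106801, and read 11.9 FPKM with anti-miR-21 and 4.56 FPKM with anti-scr (1.38), with q of 0.0131 in the authors' deposited table. Schlafen genes are close copies, so their reads can be shared. The Helz2 locus stood at 8.91 FPKM with anti-miR-21 and 9.22 FPKM with anti-scr (-0.05), and the Pml locus at 2.37 FPKM with anti-miR-21 and 2.40 FPKM with anti-scr (-0.01). The 4 macrophage markers, all above the minimum, summed to 287.0 FPKM with anti-miR-21 and 198.6 FPKM with anti-scr, and the pair of lymphocyte markers to 1.54 FPKM with anti-miR-21 and 1.47 FPKM with anti-scr. Their part in these values was not tested.

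The Samd9 promoter is printed because its locus is the 1 rise that passed the test. Capitals mark the core of the interferon-stimulated response element, searched on both strands as GAAA, any 2 bases and GAAA again; 2 of the matches overlap (RefSeq, GRCr8, chr4:32138909-32139208, minus strand).
Samd9: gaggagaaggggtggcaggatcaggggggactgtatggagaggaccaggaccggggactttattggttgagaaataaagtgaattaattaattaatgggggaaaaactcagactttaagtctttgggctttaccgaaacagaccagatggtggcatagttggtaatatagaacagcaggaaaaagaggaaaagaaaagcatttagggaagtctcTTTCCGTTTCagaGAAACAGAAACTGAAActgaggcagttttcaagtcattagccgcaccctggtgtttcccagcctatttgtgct
It holds 3 matches. Of the 9 interferon response counterparts 7 had a promoter in RefSeq, and 3 of these held the element (Samd9, Ifi44l and Pml). Among all promoters 3.74% held it. The group was chosen after its values were seen, so no comparison is drawn.

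Extracellular matrix counterparts had 18 loci, 11 higher and 7 lower, with a median of 0.07, and their members went both ways. None of the 18 passed the test, which 0.815% of all tested loci passed. The Nid1 locus, at the place of nidogen, a linker of the basement membrane, read 191.8 FPKM with anti-miR-21 and 137.0 FPKM with anti-scr (0.49), with p of 0.0103 in the authors' deposited table. The Col4a5 locus, a basement membrane collagen chain, read 44.8 FPKM with anti-miR-21 and 34 FPKM with anti-scr (0.40). In the other direction, the Htra3 locus, a secreted protease, read 26.5 FPKM with anti-miR-21 and 41.5 FPKM with anti-scr (-0.65), with p of 0.00105 and q of 0.0845 in the authors' deposited table. The Hmcn2 locus, a hemicentin of the matrix, read 3.75 FPKM with anti-miR-21 and 7.06 FPKM with anti-scr (-0.91). The 5 fibroblast markers summed to 1704 FPKM with anti-miR-21 and 1371 FPKM with anti-scr, and their part in these values was not tested.

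The remaining groups also held no locus past the test, which 0.815% of all tested loci passed. Endothelial counterparts had 8 loci with a median of 0.11, between the Vwf locus (von Willebrand factor) at 11.7 FPKM with anti-miR-21 and 13.6 FPKM with anti-scr (-0.22) and the Ptprb locus at 48 FPKM with anti-miR-21 and 40.2 FPKM with anti-scr (0.26). Leukocyte counterparts had 11 loci with a median of 0.10 and no p under 0.05 in the authors' deposited table, a level that 9.3% of all tested loci reached. The Il7r, Themis2 and Nfam1 loci of this group were not tested. Chromatin regulators had 15 loci, 11 higher and 4 lower, with a median of 0.16. Small RNA processing had 5 loci, 3 higher and 2 lower, with a median of 0.09: the Dicer1 locus, which cuts microRNA precursors, read 2.96 FPKM with anti-miR-21 and 3.24 FPKM with anti-scr (-0.13), and the Drosha locus 18 FPKM with anti-miR-21 and 21.5 FPKM with anti-scr (-0.26). The 3 that were higher in value were Tnrc6c (0.09), Tut7 (0.26) and Xrn1 (0.27), none with a p under 0.05 in the authors' deposited table. The highest of all counterparts was C7, a complement component, at 547.0 FPKM with anti-miR-21 and 448.6 FPKM with anti-scr (0.29). Among long noncoding counterparts the highest was Oip5-as1, at 113.1 FPKM with anti-miR-21 and 100.9 FPKM with anti-scr (0.16). Of the 102, 97 were tested and none passed.

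**Figure D4:**
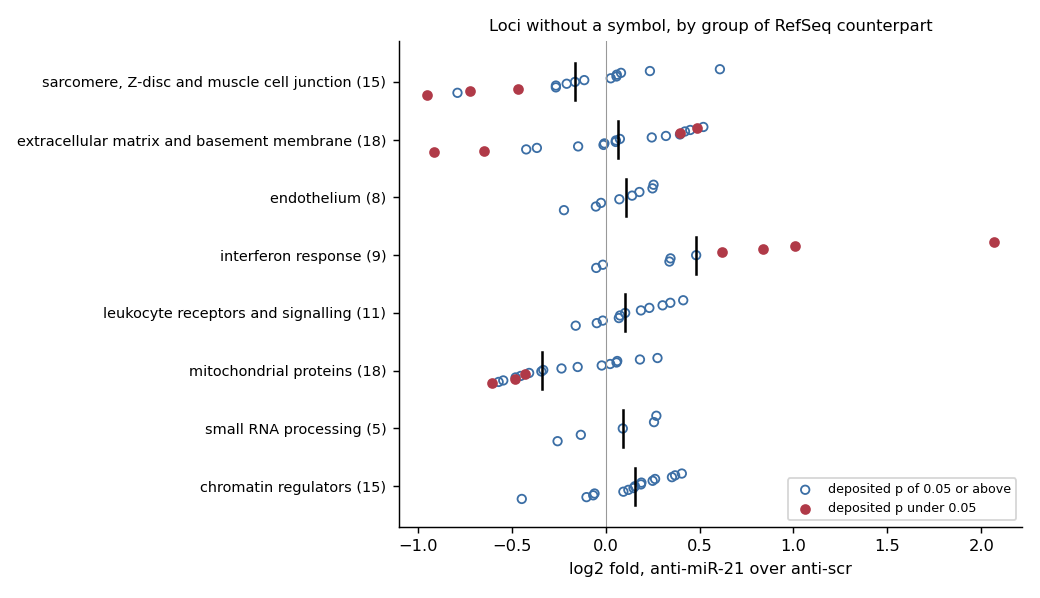
Log2 fold, anti-miR-21 over anti-scr, of unnamed loci grouped by the known role of their RefSeq counterpart, with the number of loci in brackets and a line at each median. Filled points had a p under 0.05 in the authors' deposited table. Those of the interferon group all lie above 0 and those of the mitochondrial group all lie below 0.

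Gene density around a locus went with its fold. Density counts the named loci whose midpoints fall inside a window of 500 kb each way. Its median was 7 for unnamed and 11 for named loci. Spearman's rho between density and fold was -0.43 over 586 loci with a protein-coding counterpart, -0.26 over all 1971 with a strand and -0.03 over 1011 without one, against -0.43 over named loci. With under 5 named loci around, the median log2 fold was 0.19 with a protein-coding counterpart, 0.11 without a strand and 0.16 for named loci. From 20 to 39 it was -0.18 with such a counterpart, 0.00 without a strand and -0.19 for named loci. With 40 or more, where 18 loci had such a counterpart and 10 had no strand, it was -0.29, -0.06 and -0.34. These values describe loci that share libraries and scaling, carry no p, and pool levels that differ: at 5 FPKM or above rho was -0.24 for unnamed and -0.46 for named loci.

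**Figure D5:**
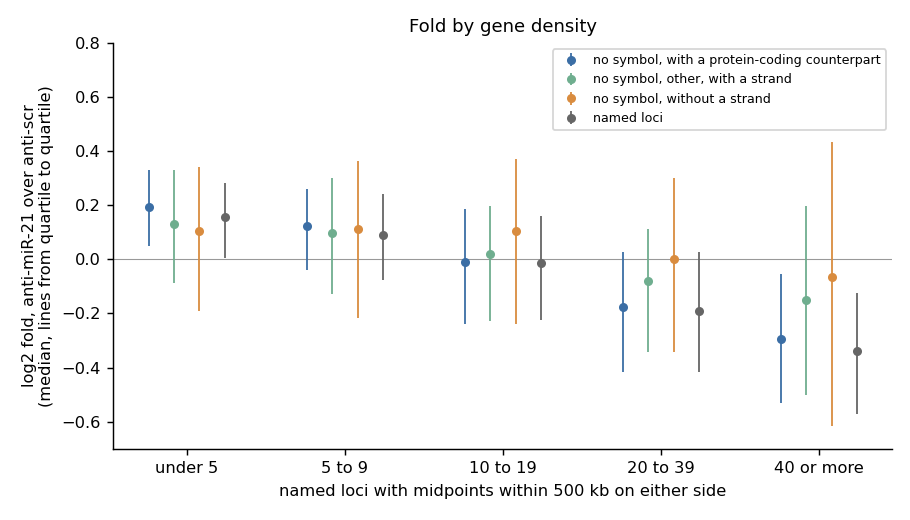
Median log2 fold, anti-miR-21 over anti-scr, by how many named loci fall inside a window of 500 kb each way, with lines between the quartiles. The medians of unnamed loci with a protein-coding counterpart step down from 0.19 in the emptiest class to -0.18 in the class from 20 named loci and -0.29 in the last, which holds 18 loci, and those of loci without a strand stay at 0.11 up to 19 named loci.

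By chromosome, the share of loci at the minimum that had no symbol lay between 16.6% on chromosome 20 and 31.5% on chromosome 17. The median log2 fold of unnamed loci ran from -0.08 on chromosome 12 to 0.19 on chromosome 13. On both, the named loci had a median of the same sign, -0.15 on chromosome 12 and 0.07 on chromosome 13. On chromosomes 1, 3, 5, 7, 16 and 19 the medians of unnamed and named loci had opposite signs, as on chromosome 19 with 0.11 for unnamed and -0.08 for named loci.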

How the data were processed

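Left ventricle RNA of 2 libraries per group was measured. The authors' deposited FPKM values, 1 per locus and group, came with a score-like p-value and q-value column and folds that stood shifted in 97 rows and were realigned; 91 of these rows gave no position. The build was rn5, and the submitters' processing notes name Cuffdiff, Cufflinks 2.0.10, TopHat2 2.0.10 and cutadapt, with no options. FPKM divides by transcript length, so a locus shorter than a fragment can take a very high value. A deposited count of reads and percent mapped came per library. Replicate pools carry no values of their own, so no model was fitted, and a deposited q under 0.05 was the call. Folds, distances, gene density and the RefSeq (GRCr8) match were computed in Python 3.11.15 with pandas 2.3.3 and scipy 1.17.1. The match used the names, order and spacing of flanking genes, and the strand and length of the candidate gene. Strand runs, nearest distances, orientations, p adjustment and motif marking were tested on simulated data. Folds, gene density and the RefSeq match were not. Loci were named by a fixed rule: highest, called, largest folds, listed at 0, longest, shortest, farthest, at the minimum, and near a cardiac gene; counterparts and close pairs came after. The members and lists were chosen with earlier results of these data known. Sequence of the loci themselves was not analysed here. Some single loci are not reported here.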

Additional observations from a re-analysis of the deposited data

How the results depend on the processing

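The count of 8 unnamed loci past the test was 8 after adjusting p over all loci at the minimum, 8 with a fold of at least 1.5, 8 without loci that share an interval with a named locus, and 9 at a minimum of 0.5 FPKM. It was 17 (3 higher, 14 lower) at q under 0.1, 179 at an unadjusted p under 0.05, and 5 at a minimum of 5 FPKM, all of them lower with anti-miR-21. It was also 5 with loci on a strand only and 5 with values above 0 in both groups, alternatives chosen after seeing the data. The median log2 fold of 0.07 stayed above 0 under every alternative run, at 0.0486 with a minimum of 5 FPKM, 0.0539 with a pseudocount of 1, 0.0419 as a mean, and 0.0479 when recentred on all loci. The share overlapping a named locus was 7.61% against expressed named loci only. The median distance of 12424 bases was 53537 from midpoint to midpoint and 21952 to named loci of at least 1 FPKM. No paired analysis was possible because the table gives 1 value per group, and for the same reason no replicate could be left out. Depth is known per library but not per locus, so no interval on an FPKM could be computed.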

Other observations

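Among coding counterparts, chosen after their values were seen, the Mib2 locus, a ubiquitin ligase of Notch ligands, stood at 1.93 FPKM with anti-miR-21 and 5.60 FPKM with anti-scr, with p of 0.0021 and q of 0.13 in the authors' deposited table. The Sbf1 locus, a myotubularin-related protein, stood at 1.33 FPKM with anti-miR-21 and 2.72 FPKM with anti-scr, with q of 0.0623 in the authors' deposited table.

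A list of 50 cardiac genes had a named locus in 44 cases. Ldb3 was not among them, and an unnamed locus had the counterpart of that name. The locus of 26 bases alone exceeded the summed FPKM of all named loci at the minimum, which was 716919 with anti-miR-21 and 775574 with anti-scr.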
